A study of Mus musculus with 14 samples.

Results

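Iron and haem handling was described through 10 genes, chosen by symbol from the 46959 gene entries of the count table. They were Tfrc and Slc11a2 of uptake, Hfe, whose protein binds the transferrin receptor, the iron sensor Ireb2, and the ferritin chains Fth1 and Ftl1. The others were the exporter, enzyme, transporter and transcription factor of macrophage recycling, Slc40a1, Hmox1, Slc11a1 and Spic. All 10 were found. RNA was sequenced from 12 cultured Eµ-Myc lines and from 2 lymphomas. Eµ-MycTg/+ mice carry Myc under an immunoglobulin heavy chain enhancer and develop B cell lymphoma. Each line came from a different Eµ-MycTg/+ mouse, is labelled WT in genotype, and was grown untreated for 24 h in medium holding 0.37 mM L-asparagine. Both lymphomas were taken from lymph nodes of wild-type C57BL/6 mice engrafted with line 506. From day 7 after injection one host received vehicle (NaCl 0.9%) and the other L-asparaginase (ASNase), an enzyme that degrades asparagine, until the disease endpoint. Each lymphoma is 1 library and both descend from 1 line, so they are not independent of each other. All values therefore concern lines of 12 mice and 2 samples of 1 engrafted line inside hosts with their own blood, immune and stromal cells. No source used here gives the hosts' age or the ASNase dose.

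Cells take up iron by endocytosis of transferrin bound to the transferrin receptor, move it into the cytosol through the transporter DMT1, and store it in ferritin, a shell built of heavy and light chains. When iron is scarce, the iron regulatory proteins bind a short RNA hairpin, the iron-responsive element: bound in the 5′ UTR it blocks translation, as in ferritin and ferroportin mRNA, and bound in the 3′ UTR it protects the mRNA from decay, as in transferrin receptor mRNA. Macrophages of spleen, liver and marrow work the other way round. They engulf old red cells, open haem with haem oxygenase 1 and release the iron through ferroportin, and the transcription factor SPIC marks the red pulp macrophages that do so. Rapidly dividing cells are known as strong importers of transferrin iron, and MYC is known to act on the genes of the transferrin receptor, of iron regulatory protein 2 and of ferritin heavy chain.

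The hairpins themselves are shown because they sort the 10 genes by how iron is known to act on their mRNA. UTRs of GENCODE M21 transcripts (GRCm38) were searched on the sense strand for a C, 5 bases, the loop CAGTGN and 5 bases that pair with the first 5, with G-T pairs allowed. Capitals mark the 6-base loop in each 27-base window.
Fth1 5′ UTR: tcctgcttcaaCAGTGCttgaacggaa
Ftl1 5′ UTR: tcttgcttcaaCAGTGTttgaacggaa
Slc40a1 5′ UTR: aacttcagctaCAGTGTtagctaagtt
Tfrc 3′ UTR, nearest the stop codon: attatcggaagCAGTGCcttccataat
Tfrc 3′ UTR, next: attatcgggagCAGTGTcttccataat
Tfrc 3′ UTR, after that: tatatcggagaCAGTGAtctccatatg
Tfrc 3′ UTR, farthest: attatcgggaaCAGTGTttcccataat
Slc11a2 3′ UTR: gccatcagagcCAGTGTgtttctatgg
The Fth1 hairpin lies at chr19:9982733-9982759 on the plus strand and that of Ftl1 at chr7:45459780-45459806 on the minus strand. Counted from the 5′ end of the window, Ftl1 differs from Fth1 by the substitutions C3T and C17T, the second of them the last loop base. The Slc40a1 hairpin lies at chr1:45925466-45925492 on the minus strand. The 4 Tfrc hairpins run along its 3′ UTR on the plus strand, at chr16:32631220-32631246, chr16:32631599-32631625, chr16:32631664-32631690 and chr16:32631711-32631737. The Slc11a2 window, at chr15:100395154-100395180 on the minus strand, made 4 of the 5 pairs, and the others made all 5. No match with at least 4 pairs was found in either UTR of Hmox1, Spic, Slc11a1, Ireb2 or Hfe, which says only that these letters are not there. Across 21875 genes, 0.128% held a match with 5 pairs in the 5′ UTR and 0.581% in the 3′ UTR. A match describes the letters and was not measured as a site here, and the counts below are of mRNA and not of translation.

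Each library held 24597230 to 32614751 counts over genes. Levels are given as CPM, counts scaled to library size with TMM factors, and as RPKM, the CPM per kilobase of the gene length in the table, wherever one gene is set against another. In each library 3 counts, the level that a count of 0 allows, come to 0.0897 to 0.124 CPM. edgeR's quasi-likelihood test set the averaged lymphomas against the lines over 17450 genes. At an adjusted p of 0.05 it called 4269 genes, 24.5% of those tested, with 13.4% higher and 11.1% lower in the lymphomas. Higher genes made up 54.8% of the calls, but 75.7% with scaling to total counts, 65.9% with limma-voom and 46.7% with DESeq2. Total-count scaling moved the median change of all genes by 0.22 on the log2 scale. The spread in this test comes from the lines alone, and each lymphoma adds 1 library. The labelled B cell type showed in the lines as Pax5, the B lineage factor, at 445 to 692 CPM.

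In the lymphomas the transferrin receptor and Ireb2 were lower than in the lines, while Slc40a1, Hmox1, Slc11a1 and Spic were higher, most of them from near 0. The ferritin chains, Slc11a2 and Hfe did not pass the test. Of the 10 genes, 4 were called higher and 2 lower. Slc40a1, Spic and Slc11a1 entered the test only through the lymphomas, where they are high. For the test, a high enough level in 1 library let a gene in, while the filter on the lines alone asked for it in nearly all lines. Hfe reached 6.87 CPM in line 504, so it did not enter only through the lymphomas, but it did not pass on the lines alone. The other 6 genes passed both filters. Among all genes that pass on the lines alone, 6.56% were called higher and 17.6% lower. In bulk RNA, fewer cells of a type and less RNA per cell cannot be told apart, and the same holds for more.

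**Figure D1:**
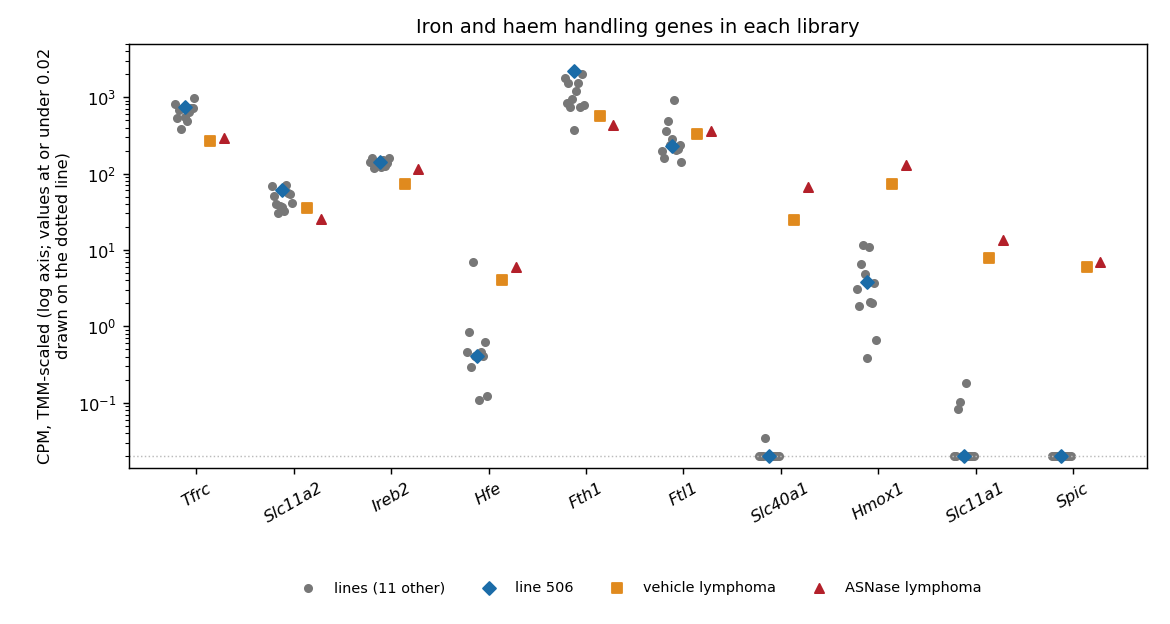
CPM of the 10 genes on a log axis in each of the 12 cultured lines and in the vehicle and ASNase lymphomas, 1 point per library, with line 506 set apart by colour. Tfrc and Ireb2 lie below all lines in both lymphomas, and Slc40a1, Hmox1, Slc11a1 and Spic above all lines; points at or under the dotted line are drawn on it.

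Tfrc (chr16:32608920-32632794, plus strand) encodes the transferrin receptor, the main entry of iron into dividing cells. Its lowest level in the lines was 385 CPM in line 504, the median 700 CPM and the highest 963 CPM in line 801. Line 506 stood at 752 CPM. The vehicle lymphoma held 266.5 CPM and the ASNase lymphoma 290.8 CPM, so that both lay below every line. The lines averaged 663 ± 157 CPM (SD, n = 12), and the change was -1.25 ± 0.29 on the log2 scale (SE; edgeR, adjusted p = 0.00731). Both lymphomas were below all lines for 12.5% of the genes tested and for 19.9% of those that pass the filter on the lines alone. With the vehicle lymphoma alone edgeR called 6.92% of genes higher and 3.76% lower, and with the ASNase lymphoma alone 7.27% and 4.55%. Tfrc kept its direction in both fits, without a call: -1.19 and an adjusted p of 0.0686 in edgeR without the vehicle lymphoma, -1.32 and 0.0516 without the ASNase lymphoma. Against line 506, its line of origin, the level was 0.354-fold in the vehicle lymphoma (95% counting interval 0.345 to 0.363) and 0.387-fold in the ASNase lymphoma.

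Slc11a2 (chr15:100387898-100425072, minus strand) encodes DMT1, which carries ferrous iron out of the endosome. It ranged from 30.8 CPM in line 504 over a median of 46.3 CPM to 70.7 CPM in line 549, with 61.1 CPM in line 506. The vehicle lymphoma had 35.6 CPM and the ASNase lymphoma 25.2 CPM. The ASNase lymphoma was below all lines and the vehicle lymphoma within their range. The change of -0.69 ± 0.32 (SE) did not pass the test (edgeR, adjusted p = 0.137). Lowest in line 504 and reduced against line 506 in both lymphomas, Slc11a2 shared these 2 positions with Tfrc.

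Hfe (chr13:23702034-23710854, minus strand) encodes the membrane protein that binds the transferrin receptor and takes part in sensing transferrin iron. It was scarce in culture, from 0.108 CPM in line 524 over a median of 0.415 CPM to 6.87 CPM in line 504. Line 506 had 12 counts, or 0.407 CPM, against 127 counts (4.09 CPM) in the vehicle lymphoma and 178 counts (5.95 CPM) in the ASNase lymphoma. Line 504 alone lay above the lymphomas. The change of 2.37 ± 1.09 (SE) was not called with all lines (edgeR, adjusted p = 0.130), and was called without line 504, at 3.57 with an adjusted p of 0.00039. With all lines, DESeq2 and limma-voom called it, at adjusted p-values of 7.31e-07 and 0.00234.

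Ireb2 (chr9:54863755-54912534, plus strand) encodes iron regulatory protein 2, one of the proteins that bind the hairpins shown above. It was the steadiest of the 6 genes expressed in culture, from 117.7 CPM in line 309 over a median of 137.9 CPM to 161.9 CPM in line 136. The vehicle lymphoma had 73.4 CPM and the ASNase lymphoma 115.9 CPM, both below all lines, the second by little. Against 138.6 ± 13.6 CPM (SD, n = 12) in the lines, the change was -0.59 ± 0.13 (SE; edgeR, adjusted p = 0.0051). The call rested on the vehicle lymphoma: without it the change was -0.25 with an adjusted p of 0.385, and without the ASNase lymphoma -0.92 with 0.00664. It was also lost with total-count scaling, at -0.36 and an adjusted p of 0.0752. Aco1, which encodes iron regulatory protein 1, went from 67.6 ± 17.6 CPM in the lines to 41.7 and 39.5 CPM and was not called (edgeR, adjusted p = 0.0736), although it was without line 524 (0.0344).

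Fth1 (chr19:9982703-9985092, plus strand) encodes ferritin heavy chain, the chain that oxidises iron for storage. It was lowest at 371 CPM in line 517, had a median of 1073 CPM, and was highest at 2186 CPM in line 506, the line both lymphomas grew from. The vehicle lymphoma held 566 CPM and the ASNase lymphoma 430 CPM, inside the range of the lines near its lower end. The change of -1.30 ± 0.57 (SE) from 1216 ± 576 CPM (SD, n = 12) did not pass the test (edgeR, adjusted p = 0.115). Set against line 506 alone, Fth1 was at 0.259-fold (95% counting interval 0.255 to 0.263) in the vehicle lymphoma and 0.197-fold in the ASNase lymphoma. These 2 ratios compare single libraries, and their base is the highest of the 12 lines. No gene, Fth1 included, was called between line 506 and the other 11 lines: 0% of 17450 genes in edgeR, with 161 at an unadjusted p under 0.05 and none of the 10 genes among them, and 29 genes in DESeq2.

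Ftl1 (chr7:45457944-45459884, minus strand) encodes ferritin light chain, which helps the mineral core to form. It ranged from 142 CPM in line 801 over a median of 232 CPM to 922 CPM in line 524, and line 506 had 227 CPM. The lymphomas lay within that range, at 331 CPM with vehicle and 359.5 CPM with ASNase. The change of 0.18 ± 0.57 (SE) was not called (edgeR, adjusted p = 0.861). Both ferritin genes have processed copies in the genome, and 11 such entries of the table held at most 4 counts each in any library. How reads that match several places were counted is not given in the sources used, so ferritin reads could have been lost and both levels are uncertain to that extent.

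Per length, ferritin heavy chain was the more abundant of the chains in every library. Fth1 had a median of 1239 RPKM in the lines and 654 and 497 RPKM in the vehicle and ASNase lymphomas, and Ftl1 a median of 173.5 RPKM and then 247 and 268 RPKM. The ratio of Ftl1 to Fth1 in RPKM was lowest in line 506, at 0.0671, with a median of 0.138 over the lines. Lines 504, 517 and 524 stood at 0.429, 0.491 and 0.495, and the next, line 649, at 0.183. The vehicle lymphoma had 0.378 and the ASNase lymphoma 0.540, which are 5.63-fold and 8.05-fold the ratio of line 506. The ASNase lymphoma was above every line and the vehicle lymphoma below 3 of them. Tfrc over Fth1, by contrast, stayed within the span of the lines (0.0482 to 0.206 in RPKM), at 0.0659 with vehicle and 0.0946 with ASNase.

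**Figure D2:**
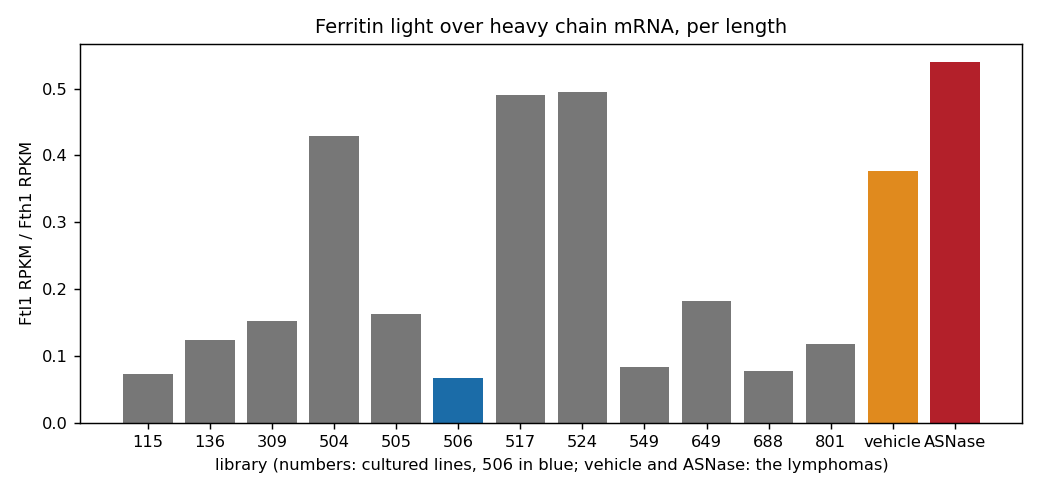
Ratio of Ftl1 RPKM to Fth1 RPKM in each library, 1 bar per library, for the 12 cultured lines and the vehicle and ASNase lymphomas. Line 506 is lowest at 0.0671, lines 504, 517 and 524 reach 0.429 to 0.495, and the lymphomas stand at 0.378 and 0.540.

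Slc40a1 (chr1:45908068-45926523, minus strand) encodes ferroportin, the only known exporter of iron from mammalian cells and abundant in recycling macrophages. A single count, in line 504, was found over all 12 lines. The vehicle lymphoma had 755 counts (24.3 CPM) and the ASNase lymphoma 2010 counts (67.2 CPM). Against the summed lines the ratio was 8523 with a counting interval of 1525 to 337064 for vehicle, and 23538 with 4220 to 930147 for ASNase (edgeR, adjusted p = 4.46e-08 for both lymphomas together). Line 506 had no count, which makes the lymphomas at least 239-fold and at least 660-fold higher against 3 counts in that library. Both lymphomas were above all lines for 19.0% of the genes tested and for 8.84% of those that pass on the lines alone.

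Hmox1 (chr8:75093591-75100596, plus strand) encodes haem oxygenase 1, which opens haem and frees its iron. It was present in all lines, from 0.389 CPM in line 517 over a median of 3.36 CPM to 11.5 CPM in line 504, and 3.84 CPM in line 506. The vehicle lymphoma had 72.7 CPM and the ASNase lymphoma 127 CPM, both above all lines. From 4.28 ± 3.67 CPM (SD, n = 12) the change was 4.49 ± 0.73 (SE; edgeR, adjusted p = 0.000942). It was called with either lymphoma alone, at adjusted p-values of 0.0111 for vehicle and 0.00275 for ASNase. Against line 506 the ratios were 19.0 (95% counting interval 15.7 to 23.1) and 33.2. It was the only gene of the recycling group that passed the filter on the lines alone.

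Slc11a1 (chr1:74375195-74386062, plus strand) encodes NRAMP1, a metal transporter of the macrophage phagosome. The lines held 10 counts in all: 2 in line 309, 3 in line 504 and 5 in line 524. The vehicle lymphoma had 244 counts (7.86 CPM) and the ASNase lymphoma 402 counts (13.4 CPM), both above all lines. The ratios to the summed lines were 275 (counting interval 147 to 582) and 471 (253 to 989), and the gene was called (edgeR, adjusted p = 0.000328).

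Spic (chr10:88674772-88685015, minus strand) encodes the factor that marks iron recycling macrophages. It had 0 counts in all 12 lines, 186 counts (5.99 CPM) in the vehicle lymphoma and 209 counts (6.98 CPM) in the ASNase lymphoma. Against 3 counts over the summed lines that is at least 700-fold and at least 816-fold higher (edgeR, adjusted p = 0.0199). Per length the 4 recycling genes remained well below ferritin in the same samples: in the vehicle lymphoma Hmox1 had 33.6 RPKM, Slc40a1 2.70, Slc11a1 2.12 and Spic 1.56 RPKM, and in the ASNase lymphoma 59.0, 7.46, 3.63 and 1.82 RPKM. The length of Slc40a1 in the table, 9000 bases, pools all its transcript models.

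Markers of macrophages moved with these genes. Of 18 markers 17 were tested and 16 called higher, against 13.4% of all genes tested, but only 1 of them, Cd68, passed the filter on the lines alone. The others did not pass it and are high in the lymphomas, so their count is a description and no support. Not all of them entered the test only through the lymphomas, since Csf1r and Adgre1 each reached a high enough level in a line. The summed level of the markers was 2.87 to 64.8 CPM in the lines, 7.87 CPM in line 506, 473 CPM with vehicle and 942 CPM with ASNase. C1qa, a complement chain made by macrophages, had 0 counts in every line and reached 29.2 and 55.0 CPM. Cd68, a lysosomal protein of macrophages, went from 2.46 ± 0.686 CPM (SD, n = 12) to 33.9 and 70.3 CPM (edgeR, adjusted p = 3.05e-07). Csf1r, the receptor of the macrophage growth factor, went from 0.607 ± 1.40 CPM to 23.7 and 45.9 CPM (edgeR, adjusted p = 0.00686), and Adgre1, the F4/80 antigen, from 0.121 ± 0.370 CPM to 9.60 and 28.9 CPM (edgeR, adjusted p = 0.0063). In culture, the highest Csf1r was 5.04 CPM in line 504 and the highest Adgre1 1.29 CPM in line 524. These lines also had the highest Hmox1, 11.5 and 10.9 CPM. That match covers 2 of the 18 markers, was picked after the values were seen and was not tested. Of the 10 stroma and endothelium markers 8 were called higher, of the 8 T cell markers 5, and all 9 tested neutrophil markers. None of these called genes passed the filter on the lines alone, so their counts are likewise a description. The neutrophil markers, at most 0.201 CPM in sum in any line, entered the test only through the lymphomas. S100a8, a neutrophil protein, had 0 counts in culture and reached 3.54 and 3.41 CPM in vivo (edgeR, adjusted p = 0.0243); its call was lost without the vehicle lymphoma (0.0519) and without the ASNase lymphoma (0.054). The part of these other cells in the 10 genes' changes was not tested.

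With all libraries and TMM scaling, edgeR called none of the 8 B cell markers beside Tfrc and Ireb2, and their sum was 2096 to 3200 CPM in the lines, 2283 CPM in line 506, 3369 CPM with vehicle and 2572 CPM with ASNase. Ms4a1 (CD20) and Blk, genes of mature B cells picked here after their values were seen, had 0.747 and 0.272 CPM in line 506 but 91.3 and 51.0 CPM with vehicle, and 27.3 and 17.98 CPM with ASNase. Host B cells in the samples and a change of the engrafted cells cannot be told apart.

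The ASNase and the vehicle lymphoma are 1 library each, so their difference has no replicate check and no test, and intervals cover counting error only. The recycling genes were higher with ASNase, Fth1 and Slc11a2 were lower, and Tfrc was nearly level. Slc40a1 had 2.76-fold the level (95% interval 2.54 to 3.01), Hmox1 1.75-fold (1.66 to 1.85), Slc11a1 1.71-fold (1.45 to 2.01) and Spic 1.17-fold (0.952 to 1.43), the only interval of the 10 that holds 1. Tfrc and Ftl1 both stood at 1.09 (1.06 to 1.12). Ireb2 was at 1.58 (1.498 to 1.67) and Hfe at 1.45 (1.15 to 1.84). Fth1 was at 0.760 (0.743 to 0.778) and Slc11a2 at 0.709 (0.645 to 0.778). By the size rule, at least 2-fold with 5 CPM or more in either library, 1 of the 10 genes differed, Slc40a1, against 4.69% of all genes at that level, 2.70% higher and 1.99% lower.

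**Figure D3:**
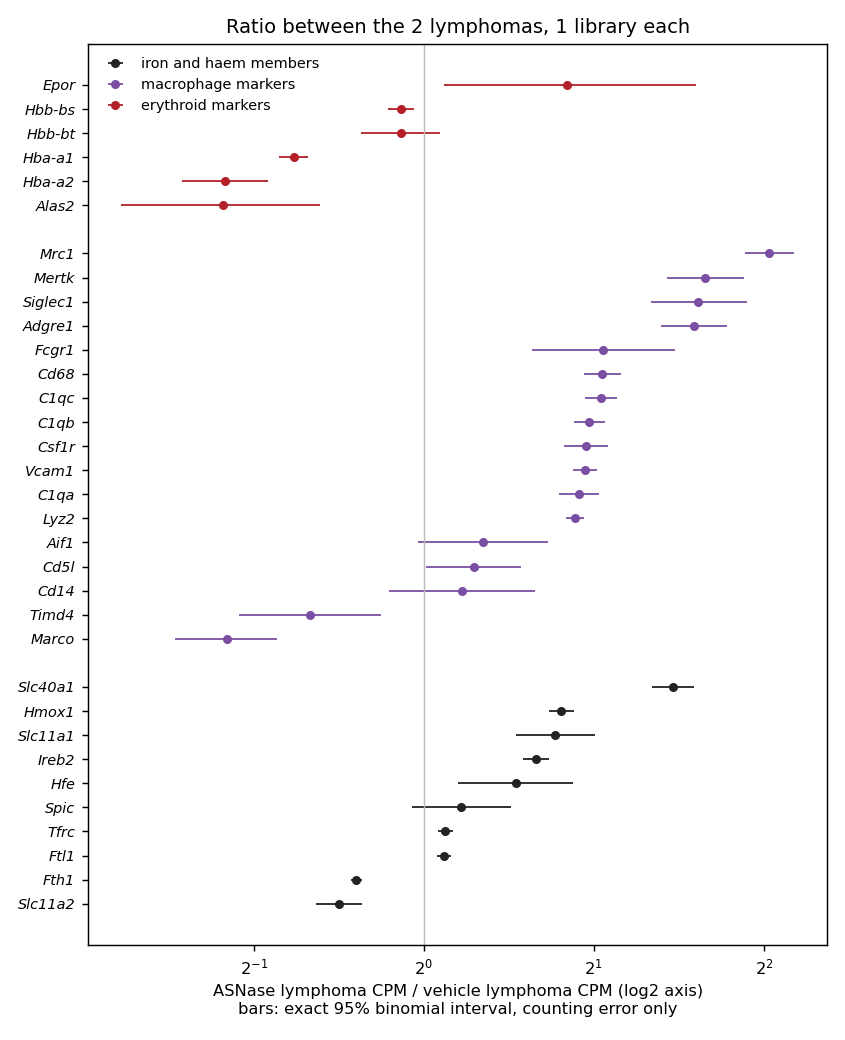
Ratio of ASNase to vehicle lymphoma CPM on a log2 axis for the 10 genes and for macrophage and erythroid markers, 1 library each, with exact 95% binomial intervals as bars. Slc40a1 stands at 2.76, within the spread of the macrophage markers, whose median is 1.94, while Tfrc and Ftl1 lie at 1.09 and Fth1 at 0.760.

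Macrophage markers also differed between these samples: 15 of the 17 with a ratio were higher with ASNase, by a median of 1.94, from 0.448 for Marco to 4.09 for Mrc1. The ratio of Slc40a1 lies inside that range and above its median, and those of Hmox1, Slc11a1 and Spic lie below the median. Siglec1, Mertk and Adgre1 stood at 3.06, 3.15 and 3.01, Vcam1 at 1.93, Cd5l at 1.23 and Timd4 at 0.630. Of 6 erythroid markers with a ratio 5 were lower with ASNase, by unequal amounts. The haemoglobin gene Hba-a1, at most 0.108 CPM in the lines, had 99.4 CPM with vehicle and 58.5 CPM with ASNase, a ratio of 0.588. Hbb-bs, about as abundant, was at 0.912 (0.865 to 0.962), Hbb-bt at 0.910 (0.774 to 1.07), with an interval that holds 1, and Epor was higher at 1.80 (1.08 to 3.03). The erythroid markers had a median ratio of 0.732 and summed to 222 and 164 CPM, against 0.317 to 84.2 CPM in the lines. The parts that cell content and the treatment had in the ratios cannot be told apart.

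Each lymphoma was also set beside line 506, again without a test. By the size rule the vehicle lymphoma had 4 of 9 genes higher and 2 lower, where 17.6% and 12.2% of all genes at that level were, and the ASNase lymphoma 5 of 10 higher and 3 lower, where 16.5% and 12.0% were. Higher in both were Slc40a1, Hmox1, Spic and Slc11a1, and lower in both Tfrc and Fth1. Hfe stood 10.0-fold (95% counting interval 5.55 to 19.95) and 14.6-fold above line 506, with 4.09 CPM in the vehicle lymphoma just under the level the rule asks for. Slc11a2 was at 0.582-fold and 0.412-fold. Ireb2 was at 0.514-fold and 0.812-fold, and Ftl1 at 1.46-fold and 1.59-fold.

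Among the cultured lines the 6 expressed genes varied very unequally. The SD of log2 CPM over the lines was 1.41 for Hmox1, 0.75 for Fth1, 0.75 for Ftl1, 0.42 for Slc11a2, 0.36 for Tfrc and 0.14 for Ireb2. Among genes in the same decile of mean level, Fth1 and Ftl1 were at the 97.3 and 97.1 percentiles of this SD, Hmox1 at 76.0, Slc11a2 at 74.3, Tfrc at 73.6 and Ireb2 at 5.84. So both ferritin genes varied more than most genes as abundant as they are, and Ireb2 less. The highest line exceeded the lowest 29.7-fold for Hmox1, 6.49-fold for Ftl1, 5.90-fold for Fth1, 2.50-fold for Tfrc, 2.29-fold for Slc11a2 and 1.38-fold for Ireb2. Line 504 was lowest in Tfrc and Slc11a2 and highest in Hmox1 and Hfe. Line 524 was highest in Ftl1, and line 517 lowest in Fth1 and Hmox1.

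By the likeness of log2 CPM over the 12 lines, 9720 genes with a mean of at least 5 CPM were ranked against Tfrc and against Fth1. The genes most like Tfrc were Mios (r = 0.91), Slc16a1 (0.88) and Dclre1a (0.87). Those most like Fth1 were Slc25a5 (0.91), B3gat3 (0.89) and Eml3 (0.89). These are the highest of many values over 12 points and describe these lines only.

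Because MYC is known to act on several of these genes, Myc mRNA was compared with them across the lines. Myc ranged from 478 CPM in line 504 to 2786 CPM in line 115, and the table's single Myc row cannot separate transgene from endogenous transcripts. In the lymphomas it was at 1401 and 1234 CPM against 1762 ± 702 CPM (SD, n = 12) and was not called (edgeR, adjusted p = 0.574). None of 6 relations passed a two-sided permutation test after Benjamini-Hochberg adjustment over the 6. Myc with Tfrc had r = 0.51 (p = 0.0935, adjusted 0.272) and rho = 0.25 (p = 0.432, adjusted 0.432), and r was -0.23 without lines 504 and 517, the lines farthest from the median of Myc, so the relation rested on them. Myc with Fth1 had r = 0.51 (p = 0.0900, adjusted 0.272) and rho = 0.66 (p = 0.0224, adjusted 0.118), with r = 0.26 without those lines. Myc with Ireb2 had r = 0.41 (p = 0.185, adjusted 0.278) and rho = 0.57 (p = 0.0590, adjusted 0.118), with r = 0.65 without them. Myc with Ftl1 had r = -0.46 (p = 0.136, adjusted 0.272) and rho = -0.57 (p = 0.0567, adjusted 0.118), with r = -0.28 without them. Tfrc with Fth1 had r = 0.35 (p = 0.272, adjusted 0.326) and rho = 0.30 (p = 0.339, adjusted 0.432), with r = 0.34 without lines 504 and 524, the farthest in Tfrc. Tfrc with Ireb2 had r = 0.20 (p = 0.538, adjusted 0.538) and rho = 0.25 (p = 0.428, adjusted 0.432), with r = -0.02 without lines 504 and 524.

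**Figure D4:**
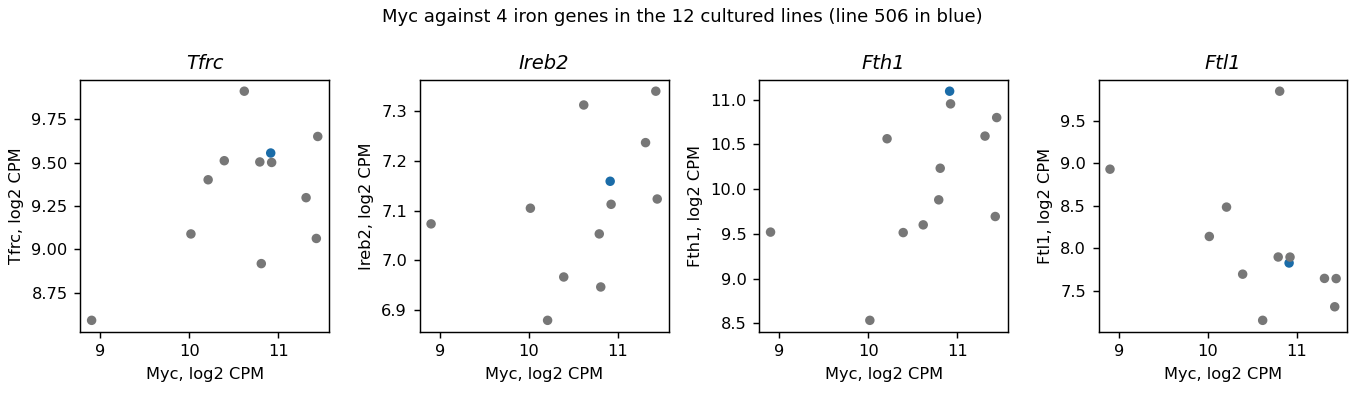
Log2 CPM of Tfrc, Ireb2, Fth1 and Ftl1 against log2 CPM of Myc, 1 point per cultured line (n = 12), with line 506 in blue. Points scatter widely in each panel, and the line with the lowest Myc, 504, is also the lowest in Tfrc.

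The wider pathway was read from lists of iron and haem genes, the 10 genes included where a list holds them. The median change over all genes tested was -0.01 on the log2 scale, and the shares called to read the counts against are 13.4% higher and 11.1% lower over all genes, and 6.56% and 17.6% over those that pass the filter on the lines alone. Of the 15 iron uptake and reduction genes, 5 were called higher and 1, Tfrc, lower. The 5 higher genes (Steap2, Steap4, Lcn2, Ltf and Scara5) had 0 to 3 counts over the lines and entered the test only through the lymphomas. Of the 5 genes that pass on the lines alone, Tfrc was the only one called. The 6 calls became 3 without the vehicle lymphoma, and also 3 without the ASNase lymphoma. Scara5, a ferritin receptor, had 2 counts in all lines together, and in the lymphomas 0.966 and 1.54 CPM (edgeR, adjusted p = 0.000118; 0.167 in DESeq2). Lcn2, which binds iron-loaded siderophores and is stored in neutrophils, had 3 counts in all lines together, and in the lymphomas 2.61 and 1.14 CPM (edgeR, adjusted p = 0.000126). Timd2, a receptor for ferritin heavy chain, reached 12.4 CPM in line 517 against a median of 0.0191 CPM over the lines. In vivo Timd2 stood at 2.77 and 10.1 CPM. The ratio between these, 3.63 (2.85 to 4.67), was the list's largest once genes below 5 CPM in both samples were set aside.

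Of 7 storage and iron chaperone genes 6 were tested, all of which pass on the lines alone; 2 fell and none rose, with a median of -0.60, where 17.6% of such genes fell. The genes that fell carry iron to ferritin. Pcbp2 went from 716 ± 51.4 CPM (SD, n = 12) to 443 and 448 CPM (edgeR, adjusted p = 0.000726), and Pcbp1 from 489 ± 72.7 CPM to 316 and 275 CPM (edgeR, adjusted p = 0.00668; 0.0843 without the ASNase lymphoma, which left 1 call). Pcbp1 also had the largest ratio between the lymphomas among the list's other genes, 0.870 (0.844 to 0.896). Ncoa4, which delivers ferritin to the lysosome, was at 60.3 ± 17.5 CPM in culture against 50.6 and 52.8 CPM in vivo and was not called (edgeR, adjusted p = 0.615).

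Of 13 genes of iron export and systemic control 8 were tested, none of which passes the filter on the lines alone, and 4 were called higher. The 4 (Slc40a1, Cp, Bmp2 and Heph) had at most 7 counts each over the lines and entered the test only through the lymphomas. The filter made these calls likely, and they support nothing by themselves. The 4 calls became 2 without the vehicle lymphoma, 2 with a filter of 1 CPM in 2 libraries and 7 with limma-voom. Cp, the ferroxidase ceruloplasmin that works with ferroportin, had 7 counts in all lines together, and in the lymphomas 10.53 and 6.08 CPM (edgeR, adjusted p = 1.46e-05), a ratio of 0.577 (0.479 to 0.694) between them and so opposite to that of Slc40a1. Bmp2, a ligand that raises hepcidin in the liver, had 1 count in the lines and 15 and 8 counts in the lymphomas (edgeR, adjusted p = 0.000184; 0.325 in DESeq2, 0.0721 without line 136).

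Among 5 sensing genes 2 fell, Ireb2 and Hif1a, and Epas1, the only one that does not pass on the lines alone, rose, with a median of -0.59. The list's pair of hypoxia factors thus moved in opposite directions. Hif1a went from 130 ± 19.4 CPM (SD, n = 12) to 49.8 and 61.5 CPM (edgeR, adjusted p = 0.000511). Epas1, which encodes HIF2α, a factor abundant in endothelium whose mRNA is known to carry an iron-responsive element, went from 0.846 ± 0.982 CPM to 31.0 and 25.9 CPM (edgeR, adjusted p = 0.00123), and was highest among the lines in line 506 at 3.60 CPM.

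Of 18 haem recycling genes 16 were tested, 7 were called higher and none lower. Of the 10 that pass on the lines alone 2 rose, Hmox1 and Slc48a1, where 6.56% of such genes did. The other 5 higher genes do not pass on the lines alone and were near 0 in the lines. Beside Hmox1, Slc11a1 and Spic, the haem-hemopexin receptor Lrp1 went from 0.0992 ± 0.119 CPM (SD, n = 12) to 53.6 and 108 CPM (edgeR, adjusted p = 8.3e-06). Haptoglobin, Hp, which binds free haemoglobin, had 7 counts in all lines together, and in the lymphomas 5.86 and 6.55 CPM (edgeR, adjusted p = 4.07e-05). Cd163, the macrophage receptor for that complex, had 0 counts in the lines and 32 and 271 counts (1.03 and 9.06 CPM) in the lymphomas (edgeR, adjusted p = 0.0236; 0.0874 without the ASNase lymphoma, 0.0854 in DESeq2), and its ratio of 8.79 (6.08 to 13.1) between them was the largest in the list. Slc48a1, the haem transporter of the phagolysosome, was well expressed in the lines at 24.9 ± 3.60 CPM and rose to 40.0 and 47.3 CPM (edgeR, adjusted p = 0.00427; 0.0704 without the ASNase lymphoma). Mfsd7b, the haem exporter FLVCR1, was below all lines at 27.2 and 38.9 CPM against 51.4 ± 11.0 CPM and was not called (edgeR, adjusted p = 0.0582), except in DESeq2 (0.0438).

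Of 15 haem synthesis genes, 14 of them passing on the lines alone, 1 rose and 1 fell, with a median of -0.03, and neither was called once the vehicle or the ASNase lymphoma was left out, while without line 524 the calls numbered 4. Alas2, the first enzyme of haem synthesis in red cell precursors, had 0 counts in culture and reached 2.80 and 1.24 CPM in vivo (edgeR, adjusted p = 0.0307; 0.132 in DESeq2, 0.0803 without the vehicle and 0.0597 without the ASNase lymphoma). Clpx, the mitochondrial unfoldase that activates ALAS, went from 55.0 CPM on average (44.7 to 80.5 CPM over the lines) to 31.3 and 31.7 CPM (edgeR, adjusted p = 0.0168; 0.0613 with total-count scaling, 0.0993 and 0.0998 without the vehicle or the ASNase lymphoma). Between the lymphomas Alas2 had a ratio of 0.441 (0.292 to 0.655), but it stayed below 5 CPM in both. Among the list's other genes the ratio of Uros, 0.614 (0.519 to 0.726), lay farthest from 1. Of 22 mitochondrial iron and iron-sulphur genes, all passing on the lines alone, 3 fell, where 17.6% of such genes did, with a median of -0.21. None rose with all libraries and TMM scaling in edgeR, but 2 did without line 309, with DESeq2 and with a filter of 1 CPM in 2 libraries, and 3 with limma-voom and with total-count scaling, each beside 3 that fell. Among those that fell, Glrx5, which hands on iron-sulphur clusters, went from 70.3 ± 11.5 CPM to 47.2 and 30.8 CPM (edgeR, adjusted p = 0.00669; 0.184 without the ASNase lymphoma).

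Hmox1 is also a known target of NRF2 and of the haem-sensing repressor BACH1, so 11 other targets of these factors were set beside it. This list holds none of the 10 genes and does not cover all targets. Of 11 such genes 5 were called lower and 2 higher. The 5 are among 7 that pass on the lines alone, where 17.6% of such genes fell. The 2, Srxn1 and Slc7a11, do not pass on the lines alone and were near 0 in the lines. The 7 calls became 4 without the vehicle and 3 without the ASNase lymphoma. The peroxidase Prdx1 went from 565 ± 52.4 CPM (SD, n = 12) to 243 and 249 CPM (edgeR, adjusted p = 3.91e-05), and the thioredoxin reductase Txnrd1 from 191 ± 49.6 CPM to 58.8 and 59.5 CPM (edgeR, adjusted p = 0.00204). Srxn1, which restores oxidised peroxiredoxin, had 10 counts in all lines together, and in the lymphomas 2.71 and 3.58 CPM (edgeR, adjusted p = 0.00362; 0.227 in DESeq2). Slc7a11, the cystine importer, had 2 counts in the lines and 11 in each lymphoma (edgeR, adjusted p = 0.000716; 0.256 in DESeq2). Gclc, which limits glutathione synthesis, was at 206 ± 60.2 CPM in culture against 152 and 240 CPM in vivo, was not called (edgeR, adjusted p = 0.864) and had the list's largest ratio between the lymphomas, 1.57 (1.52 to 1.63). Bach1 itself was at 26.9 ± 13.4 CPM in culture against 15.5 and 25.1 CPM in vivo.

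**Figure D5:**
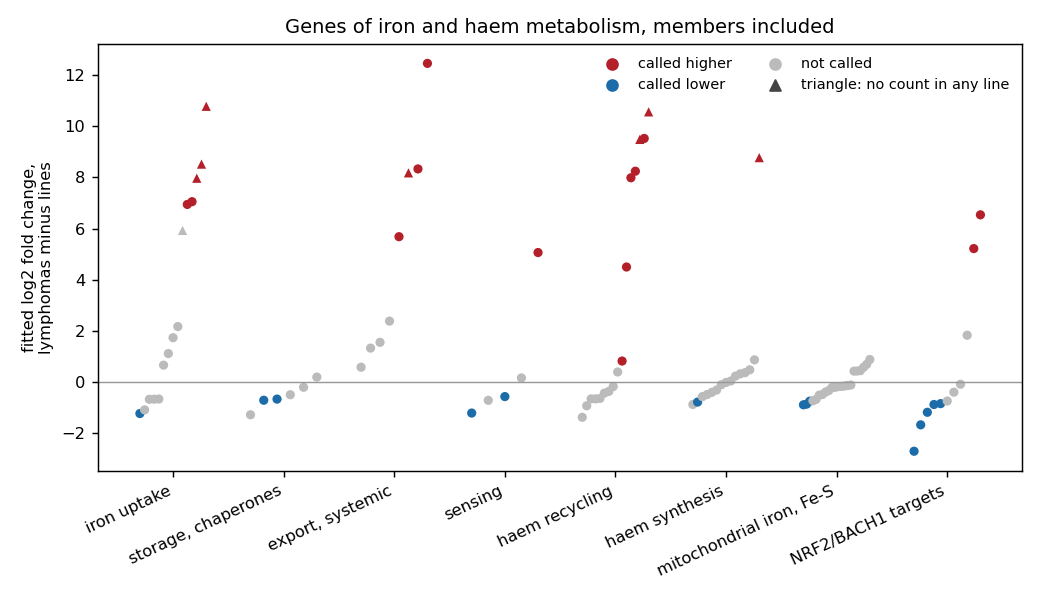
Fitted log2 fold change of both lymphomas against the 12 lines for each tested gene of the pathway lists, 1 point per gene, coloured by call. Genes of mitochondrial iron and haem synthesis lie within about 1 of 0 apart from Alas2, and the uptake, export and recycling lists hold genes with no count in any line (triangles), whose fitted size is no bound.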

How the data were processed

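The deposited table holds whole-number counts per gene for 14 libraries, not normalized. Per the submitters' processing notes the authors used STAR 2.4.0 and featureCounts (Subread 1.5.0-p3) on mm10 (GRCm38), and per the labels' protocols the mRNA kit was stranded. Whether counting used the strand, or reads with several matches, is not given in the sources used. All columns were matched by title, and 100 spike-in and phage entries were left out.

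Genes were filtered by filterByExpr, scaled by TMM and tested with edgeR 4.0.16 (quasi-likelihood, 3 groups, 11 residual degrees of freedom, all from the lines), with Benjamini-Hochberg adjustment over 17450 genes and a threshold of 0.05. P-values measure the spread between lines from different mice. Single libraries were compared by ratio with exact 95% binomial intervals, which cover counting error only since reads carry no molecular identifiers. Log2 CPM used a prior count of 2. Relations used 100000 permutations. DESeq2 1.42.0 and limma 3.58.1 (R 4.3.3) served as alternatives. Figures were drawn with matplotlib 3.10.9 in Python 3.11.15.

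The 10 genes and all lists were chosen with earlier results of these data known. Named beside the 10 were, from each pathway list, the 2 other genes with the smallest p each way among those called, the one with the largest ratio between the lymphomas at 5 CPM or more, fixed cell type markers and Myc, and the 3 genes most like Tfrc and Fth1. Aco1, Ncoa4, Slc48a1, Mfsd7b, Bach1, Pax5, Ms4a1, Blk and the macrophage genes Marco, Mrc1, Siglec1, Mertk, Timd4, Cd5l and Vcam1, and Hbb-bs, Hbb-bt, Epor, Col1a1 and Col1a2, were named after their values were seen. Of 170 list names 169 were found, 3 of them under another symbol. A few genes that this rule names are not reported here.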

Additional observations from a re-analysis of the deposited data

How the results depend on the processing

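No paired analysis was possible because each lymphoma is 1 library and only line 506 links the groups, so replicate numbers pair nothing. Leaving out 1 library at a time, the genes called between lymphomas and lines numbered 1816 to 4881, the lowest without the ASNase lymphoma and 2012 without the vehicle lymphoma, against 4269. Between line 506 and the other lines DESeq2 called 29 genes, all lower, where edgeR called 0. The counts of genes past 2-fold follow the CPM asked for. Between the lymphomas they were 1133 at 1 CPM and 192 at 20 CPM, against 495 at 5 CPM. For the vehicle lymphoma against line 506 they were 5088 and 1871, against 3121, and for the ASNase lymphoma 4953 and 1766, against 2999. Higher genes were 59.1% and 58.0% of those counts, and 80.1% and 83.0% with total-count scaling. That scaling also turned the sign of Ireb2 in line 506 against the other lines, to -0.053, and in the ASNase lymphoma against line 506, to 0.042, both on the log2 scale, and that of Ncoa4, which was not called, in the lymphomas against the lines, to 0.0030. Without the 2 farthest lines r changed sign for Myc with Tfrc (-0.23) and Tfrc with Ireb2 (-0.016). Over all values for single genes, lists and relations under all alternatives, those given here and beside the results included, 1170 kept their direction and side of the threshold, 32 moved, 7 gained a call, 58 lost one and 5 changed sign. The cause was not tested in any of these.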

Other observations

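Of the erythroid markers 8 of 11 found were tested, none of which passes the filter on the lines alone. Of these, 4 rose (Hba-a1, Hba-a2, Alas2 and Epor, the erythropoietin receptor) and 1 fell (Klf1, an erythroid factor). Over all genes tested, 13.4% were called higher and 11.1% lower. Klf1 was near the floor, with 0 counts with vehicle, 2 with ASNase and 6 in line 506. All but Hba-a1 and Alas2 were named after their values were seen. Epor was not called without the ASNase lymphoma (edgeR, adjusted p = 0.0875), nor Klf1 without the vehicle lymphoma (0.140). Hba-a1 went from 6 counts over all lines to 3086 counts with vehicle and 1750 with ASNase (edgeR, adjusted p = 6.89e-07). Hba-a1 has a near-identical copy, Hba-a2, and its level is uncertain to that extent. With vehicle and with ASNase, neutrophil markers summed to 23.8 and 15.4 CPM, T cell markers to 64.7 and 15.6 CPM, and stroma and endothelium markers to 791 and 1406 CPM. Over the lines these sums ranged from 0 to 0.201 CPM, 0.725 to 41.1 CPM and 27.3 to 169 CPM in the same order. The T cell sum of the ASNase lymphoma thus lay within the range of the lines. Of the stroma and endothelium markers only 4 of 10 were higher with ASNase, with a median ratio of 0.870. Their larger sum came from the collagen genes Col1a1 (273 and 602 CPM) and Col1a2 (218 and 579 CPM). All 8 T cell markers were lower with ASNase, in 1 library each. Further genes of the pathway lists that were called were Steap2, Steap4, Ltf and Heph, each with 0 counts in all lines, and the redox genes Txn1, G6pdx and Gsr, which fell. With both lymphomas in turn left out, Steap2 (edgeR, adjusted p = 0.0872 without vehicle, 0.0844 without ASNase), Ltf (0.0919, 0.0597), Heph (0.0803, 0.0824), Txn1 (0.111, 0.207) and Gsr (0.212, 0.198) lost their calls, and G6pdx did without ASNase (0.0785). In DESeq2, Steap2 (0.180), Ltf (0.146) and Heph (0.166) were not called. Steap2 (0.0586) and Heph (0.0542) were also lost with a filter of 1 CPM in 2 libraries, and Txn1 with total-count scaling (0.0827). Gsr lost its call without any one of 10 of the 12 lines (adjusted p-values of 0.0509 to 0.0662), with limma-voom (0.206), total-count scaling (0.0687), RLE scaling (0.053), no filter (0.0571) and that filter (0.0535). Steap4, a metalloreductase, reached 6.86 and 8.25 CPM (edgeR, adjusted p = 0.019).

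With 1 library per lymphoma, both grown from line 506, no value separates treatment from host, sampling or tumour content. Slc40a1, Slc11a1 and Spic have bounds or wide intervals in place of fold changes, and for other genes near 0 in the lines no fold is given. Levels are of mRNA, and the iron-responsive elements act on translation and decay, which counts do not show apart.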
